A study of Mus musculus with 4 samples.

Results

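The comparison described here is frontal cortex DNA methylation in adult CD-1 female offspring that were exposed in utero to estriol (E3) against offspring exposed to the vehicle (CT). Its members were every site in the deposited frontal cortex tables: 9731 CpG, 4811 CHG and 13898 CHH sites. H stands for A, C or T. These 28440 sites were taken from 20524023 rows in all tables of the series. The other rows hold the hippocampus of E3 and CT offspring, which was used here only as a second pair of libraries. The study asked whether fetal E3 exposure changes DNA methylation of the adult brain.

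Both groups were wild type, on the outbred CD-1 background, and labelled as 8 weeks of age. The label does not say whether this is the age of the offspring or of the dams, which by the study's methods had that age at mating, and the study's cortex expression assays were made in older offspring. Their dams carried a mini-osmotic pump from day 9 of gestation for 7 days. In the E3 group the pump held 50 µl of E3 at 0.46 mg/ml, dissolved in DMSO. In the CT group it held DMSO alone. Each group had 1 frontal cortex library, and neither the labels nor the methods state how many mice contributed to it. Treatment, animal, litter and library can therefore not be told apart, and no value below carries a replicate error or a test between conditions. The frontal cortex tables give the methylation level of each library but no read counts, so the depth behind a level is unknown. They also hold only sites past the authors' thresholds. The smallest difference listed was 10 points in CpG, 12.6 points in CHG and 11.3 points in CHH. A tissue label cannot be checked against expressed markers in such tables.

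Most methylated cytosines of mammalian DNA stand before a guanine (CpG), and CpG islands at promoters are mostly kept free of it. Neurons also carry methylation outside CpG, laid down after birth by DNMT3A, mainly before adenine and above all in the triplet CAC. Bisulfite turns unmethylated cytosine into uracil, so a cytosine that stayed unconverted for another reason is counted as methylated.

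The sequences of 3 kinds of listed site are shown from the GRCm38 (mm10) reference genome, because the results turn on how sites lie in them. The first are 2 of the longest CHG and CHH runs, both in introns, with each listed cytosine in capitals, to show that most cytosines of 1 strand were listed. Rassf8 is a RAS-association domain protein (intron, chr6:145800085-145800271, plus strand), and Rbfox1 is a neuronal splicing regulator (intron, chr16:6396180-6396347, minus strand).
Rassf8: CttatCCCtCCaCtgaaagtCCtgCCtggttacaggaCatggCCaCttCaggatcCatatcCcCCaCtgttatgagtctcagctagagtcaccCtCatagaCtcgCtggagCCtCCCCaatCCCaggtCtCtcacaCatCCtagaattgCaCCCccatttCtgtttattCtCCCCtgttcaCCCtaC
Rbfox1: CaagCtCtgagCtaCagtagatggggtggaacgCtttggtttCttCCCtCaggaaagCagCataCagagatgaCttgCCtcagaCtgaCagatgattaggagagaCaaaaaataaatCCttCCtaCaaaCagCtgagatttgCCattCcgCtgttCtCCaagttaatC

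The second kind are CpG runs, shown on the plus strand with each listed CpG in capitals. Pigm adds a mannose to the glycosylphosphatidylinositol anchor (coding exon, chr1:172377133-172377312). Actn1 is an actin-crosslinking alpha-actinin (coding exon and intron, chr12:80168378-80168560). Vcpkmt is a lysine methyltransferase (coding exon, chr12:69582819-69582967). Nnat is an imprinted gene of the developing brain that lies inside an intron of Blcap (coding exon and intron, chr2:157560499-157560549).
Pigm: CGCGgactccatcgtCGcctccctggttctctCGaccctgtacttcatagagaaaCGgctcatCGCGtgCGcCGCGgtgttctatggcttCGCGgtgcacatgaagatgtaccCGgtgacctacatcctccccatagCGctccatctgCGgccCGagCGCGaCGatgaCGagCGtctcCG
Actn1: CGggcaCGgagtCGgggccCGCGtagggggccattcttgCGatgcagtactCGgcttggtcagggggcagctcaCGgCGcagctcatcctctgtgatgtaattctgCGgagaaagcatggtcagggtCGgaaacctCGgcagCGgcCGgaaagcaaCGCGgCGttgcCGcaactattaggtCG
Vcpkmt: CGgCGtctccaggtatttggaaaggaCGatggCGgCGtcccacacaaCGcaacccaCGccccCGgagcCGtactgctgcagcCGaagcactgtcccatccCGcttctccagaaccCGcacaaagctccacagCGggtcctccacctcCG
Nnat: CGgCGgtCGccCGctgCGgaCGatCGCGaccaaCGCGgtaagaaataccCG

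The third kind are lone CHG and CHH sites at the ends of the scale, 100% in one library and 0% in the other, shown on the strand of the cytosine with its triplet in capitals. Of these 4 sites, those in Marchf4 (intron, chr1:72482274-72482294, plus strand) and Naaladl2 (intron, chr3:24024571-24024591, minus strand) were at 100% in E3. Those in Prkcb, a protein kinase C gene (intron, chr7:122609932-122609952, minus strand), and Sardh (intron, chr2:27215021-27215041, plus strand) were at 100% in CT.
Marchf4: gcaccgtgagCAGaaactgct
Naaladl2: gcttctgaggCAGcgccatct
Prkcb: tggggattttCTGtctcccat
Sardh: tcctgatcctCACtcacctgg

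Listed sites were more often lower than higher in E3 in every context, and the imbalance was larger outside CpG. In CpG 63.7% of listed sites were lower in E3 (6196 of 9731, 95% Wilson interval 62.7 to 64.6%). In CHG the share was 79.5% (3827 of 4811, 78.4 to 80.7%), and in CHH it was 75.3% (10464 of 13898, 74.6 to 76.0%). These shares are themselves the background for every count of lower sites below. All intervals take sites as separate and cover counting error only, whereas neighbouring sites can lie on the same reads.

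The levels showed what kind of site was listed. The median level was 8.33% in E3 and 22.5% in CT for CpG, 0% and 22.2% for CHG, and 0% and 22.5% for CHH. The E3 library was at 0% in 66.3% of CHG and 59.8% of CHH sites, against 16.5% and 19.1% for the CT library. At CpG sites the corresponding shares were 27.1% and 14.1%. Both libraries were above 50% at 26 CpG sites and at 0 CHG or CHH sites. The typical listed site outside CpG was thus at 0% in E3 and above 20% in CT.

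Direction changed with the size of the difference. Among CpG sites differing by 10 to 20 points, 73.5% were lower in E3, and among those differing by 50 to 70 points 52.5% were. At 90 points or more the CpG share was 61.4% (350 of 570). In CHG the share went from 85.1% at 10 to 20 points to 52.0% at 70 to 90 points, and at 90 points or more only 30 of 85 sites were lower (35.3%, 26.0 to 45.9%). CHH sites went from 81.3% to 71 of 177 sites at 90 points or more (40.1%, 33.2 to 47.5%). Outside CpG only the class of 90 points or more was mostly higher in E3.

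**Figure D1:**
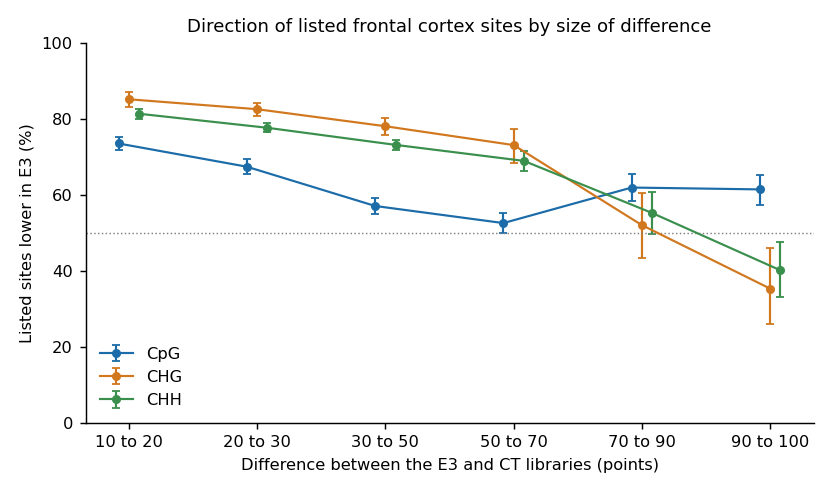
Share of listed frontal cortex sites that were lower in E3 (%), by the size of the difference between the E3 and CT libraries (points), for CpG, CHG and CHH. Points are shares with 95% Wilson intervals and the dotted line is 50%. CHG and CHH fall from above 80% at 10 to 20 points to 35.3% and 40.1% at 90 to 100 points, while CpG stays above 50%.

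In the hippocampus, whose tables hold read counts, direction moved with depth. The median coverage of CHG sites was 29 reads in E3 and 10 in CT. Mean CHG levels over all measured sites were close, 2.22% in E3 and 2.30% in CT, yet 92.6% of the CHG sites that passed the study's thresholds were lower in E3. Where the E3 reads were at least 2 times the CT reads the share was 96.7%, and where the CT reads were at least as many it was 63.0%. For CHH the shares were 91.3% over all calls, 95.6% and 64.7%. For CpG they were 44.4%, 43.8% and 46.6%. The part of depth in the frontal cortex directions was not tested, since its reads are not in the tables used here.

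Direction in CpG also followed the place of the site, and outside CpG it did so less. Promoter CpG sites were lower in E3 in 79.9% of cases (2197 of 2748) and island CpG sites in 80.7% (1964 of 2434). Sites in both a promoter and an island reached 85.1% (1370 of 1610), and promoter sites outside islands 72.7% (827 of 1138). Exon sites were at 71.4%, intron sites at 64.5%, and sites in no gene part at 55.0% (1771 of 3218, 53.3 to 56.8%). Over the same 5 parts the CHG shares lay between 77.9% in islands and 84.9% in promoters, and the CHH shares between 74.5% in introns and 80.1% in promoters. Promoter sites outside islands were lower in 86.6% of cases in CHG and 80.8% in CHH, and island sites outside promoters in 71.4% (30 of 42) and 79.3%, against 72.1% in CpG.

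For CpG the same order appeared by distance to the nearest protein-coding gene start. Within 250 bases of a start 80.7% of CpG sites were lower in E3 (669 of 829). From 1000 to 5000 bases 68.5% were, and beyond 100000 bases 52.8% (844 of 1599). CHH went from 81.0% to 72.2% over the same span. CHG had no steady order, with 82.4% within 250 bases (84 of 102), 89.0% from 250 to 1000 bases, 76.5% from 1000 to 5000 and 77.9% beyond 100000. Large differences ran the other way: 4.70% of CpG sites within 250 bases of a start differed by 50 points or more, against 44.8% beyond 100000 bases. In promoters 132 CpG sites (4.80%) differed by 50 points or more, and in introns 1065 did (27%).

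By gene, 2431 genes had a listed promoter CpG site. Every such site was lower in E3 in 1995 of them and higher in 367, with both directions in 69. At least 3 promoter sites were listed for 121 genes, all lower in 70 and all higher in 27.

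**Figure D2:**
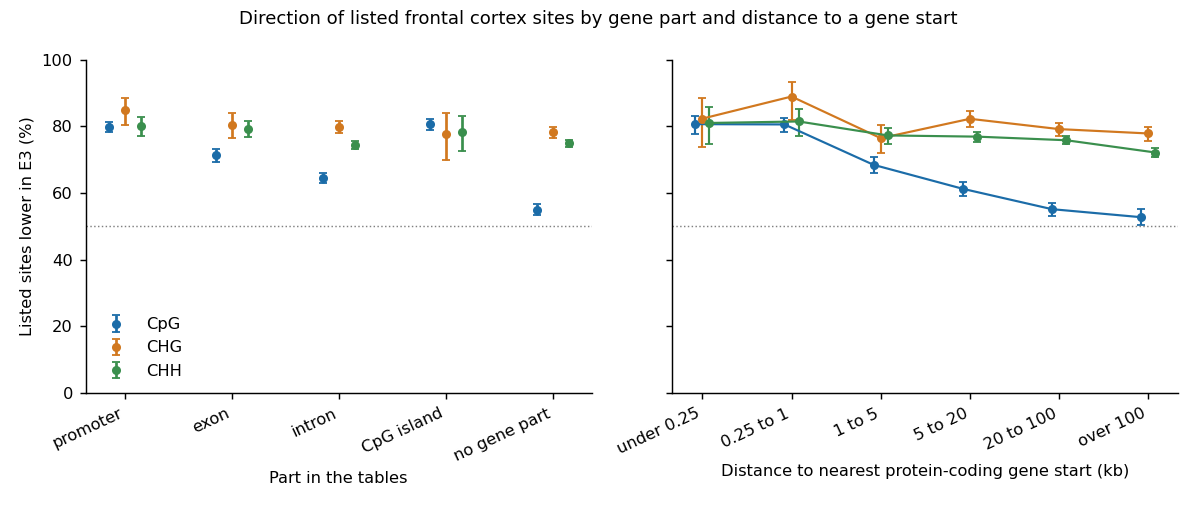
Share of listed sites lower in E3 (%) by the gene part given in the tables (left) and by distance in kilobases to the nearest RefSeq protein-coding gene start (right). Points are shares with 95% Wilson intervals, colours are contexts, and the dotted line is 50%. CpG falls from 80.7% within 250 bases to 52.8% beyond 100000 bases, and CHG and CHH stay above 70%.

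On the X chromosome 371 of 502 CpG sites were lower in E3 (73.9%), against 63.1% on autosomes. The X held 8.02 listed CpG sites per 1000 CpG sites measured in the hippocampus and the autosomes 5.56. Outside CpG the order was reversed, with 0.460 against 1.02 per 1000 in CHG and 0.435 against 1.06 in CHH. A single gene, Bcor, supplied 41 of the X chromosome's CpG sites.

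Listed sites outside CpG were concentrated in a few triplets. The listing did not use triplets, but it did need methylation in at least 1 library, which favours triplets with higher levels. The background below includes sites at 0% in both hippocampus libraries (63.7% of CHG and 62.5% of CHH sites). Triplet shares among sites of a like level were not computed. CAC made up 38.3% of listed CHH sites but 10.7% of the CHH sites measured in the hippocampus, a 3.56-fold excess. CAG made up 75.4% of listed CHG sites against 46.5% of those measured. CTC (16.0% against 12.2%) and CAT (15.6% against 9.73%) were also over their share, while CCA was at 3.63% against 13.1%. In the hippocampus itself CAC had the highest mean level of the CHH triplets, 4.80% in E3 and 5.18% in CT, and the lone listed CAC sites measured there averaged 9.83% and 10.9%. CAG and CTG lie opposite each other on both strands, yet among 4495 listed sites of these triplets there was only 1 position with both strands listed.

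Direction differed between triplets too. CAC sites were lower in E3 in 67.6% of cases (3597 of 5321), the smallest share of any triplet, while CCA sites were lower in 93.1% (469 of 504) and CTG sites in 90.8% (789 of 869). Among sites outside runs of 5 or more, 71.0% of sites before adenine were lower and 81.6% of those before cytosine or thymine. CAC, the triplet typical of neurons, was thus the most evenly split.

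The hippocampus level of a site, which the listing did not use, went with its frontal cortex direction. Listed CHG sites at 0% in both hippocampus libraries were lower in frontal E3 in 86.5% of cases (959 of 1109), those between 10 and 50% in 66.4% (376 of 566), and those at 50% or more in 43.0% (43 of 100). CHH gave 85.4%, 60.2% and 52.0%, and CpG gave 75.2%, 56.5% and 52.4%. Listing was also more frequent where the hippocampus was methylated outside CpG. Of CHG sites at 0% in the hippocampus 0.360 per 1000 were listed, and of those at 50% or more 19.4 per 1000. CpG sites were listed most often at 10 to 50% (15.2 per 1000) and least at 50% or more (1.5 per 1000).

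**Figure D3:**
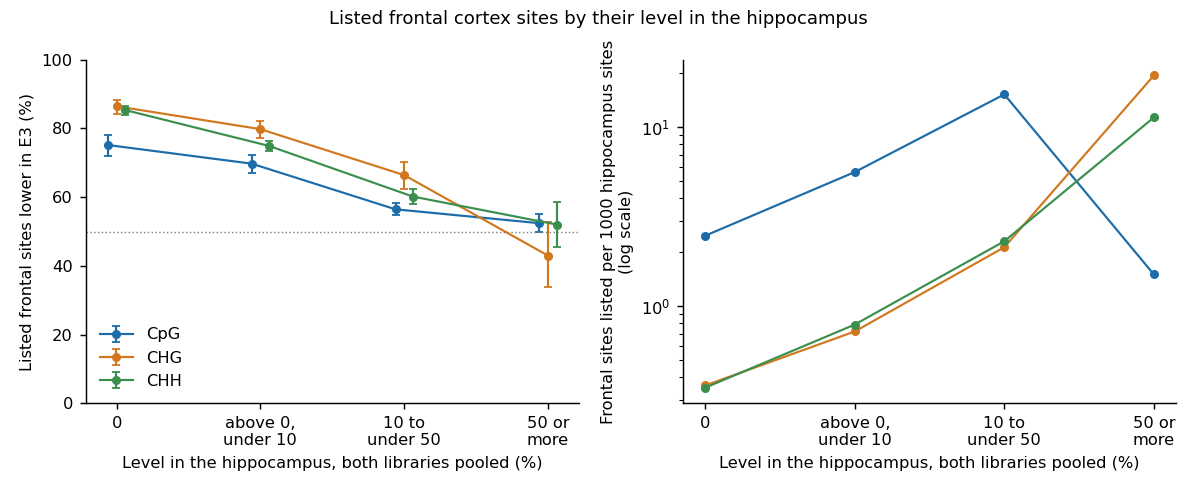
Left, share of listed frontal cortex sites lower in E3 (%) by the level of the same site in the hippocampus with both libraries pooled (%), with 95% Wilson intervals. Right, number of frontal cortex sites listed per 1000 hippocampus sites of that level, on a log scale. CHG and CHH listing rises over the level classes to 19.4 and 11.3 per 1000, whereas CpG listing peaks at 15.2 per 1000 between 10 and 50%.

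The direction and the triplets of sites outside CpG differed with the length of the run they lay in. Sites at most 100 bases apart were joined into runs. Of 18709 CHG and CHH sites 13444 stood alone, of which 72.0% were lower in E3 and 73.9% were before adenine. Runs of 2 to 4 sites numbered 1406 and held 3140 sites, of which 81.8% were lower and 67.3% before adenine, and 54 runs of 5 to 9 held 310 sites, with 92.6% and 44.8%. A further 79 runs of 10 sites or more held 1815 sites, of which 96.6% were lower in E3 and 32.0% before adenine. In 76 of these runs every site was lower in E3, in 2 every site was higher, and 77 runs lay on 1 strand. Within them 74.4% of the reference CHG and CHH cytosines of that strand were listed, but only 9 of 172 reference CpGs.

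Levels inside these runs were nearly flat. Among the 76 runs that were lower in E3, 55 had E3 at 0% at every site, and 15 had one single CT level at every site. The CT levels of a run lay within 10 points of each other in 54 runs. Run means in CT ranged from 15.8 to 71.4%, with a median of 25%. Of the 51 runs with 5 or more sites measured in the hippocampus, 38 were under 5% in both hippocampus libraries. Sequence masked as repeats in the reference held 28.8% of the CHH sites in runs of 10 or more and 18.6% of all listed CHH sites. It held 27.7% of all CHH sites measured in the hippocampus.

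The Rassf8 run printed above was the longest, with 53 sites over 187 bases. Every site was at 0% in E3 and at 60.0% in CT. Of 68 CHG and CHH cytosines on its strand 77.9% were listed, and its hippocampus level was 1.05% in E3 and 1.35% in CT. In Rbfox1 35 of 36 such cytosines were listed, at 0.359% in E3 and 20.9% in CT on average. Both CpGs inside the Rbfox1 run were listed too, and in the opposite direction, at 23.8% and 17.9% in E3 and at 0% in CT.

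Runs in other named genes had the same form. Mllt6, a PHD finger protein gene, and the overlapping Mir6927 had 37 sites at 0.142% in E3 and 21% in CT (chr11:97677014-97677181). Wnt5b, which encodes a Wnt ligand, had 34 intronic sites at 0% and 45.6% (chr6:119435576-119435771). Its run was 1 of 7 among the 51 with a hippocampus CT level of 5% or more, the values there being 0.476% in E3 and 44.3% in CT. Coverage summed over the 14 sites measured there was 420 reads in E3 and 70 in CT. In such sums a read that covers several sites is counted at each of them. Arhgef18, a guanine nucleotide exchange factor gene, was at 22.9% in frontal CT and 20.7% in hippocampus CT, with hippocampus E3 at 0.397% (chr8:3452125-3452268). Of the same 51 runs, 6 had a hippocampus E3 level of 5% or more, among them the run near Gm39806 (12.3% in E3, 1.67% in CT).

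The opposite direction was seen in the run that overlaps an untranslated exon of Rmi1, a partner of the BLM helicase, and an intron of Hnrnpk, an RNA-binding protein gene (chr13:58403022-58403197). Its 43 sites averaged 18.3% in E3 and 0.112% in CT. Here 1 of 13 reference CpGs was listed, also higher in E3 (18.2% against 0.990%).

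**Figure D4:**
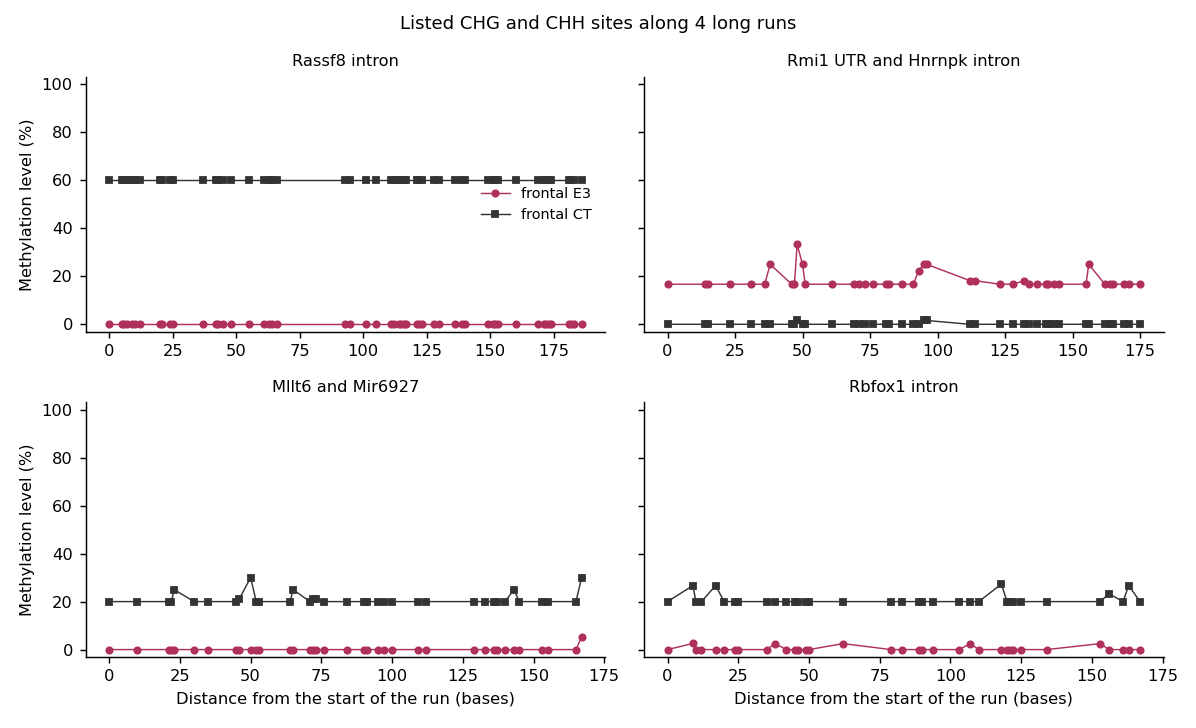
Methylation level (%) of each listed CHG and CHH site in the frontal cortex E3 (circles) and CT (squares) libraries along 4 long runs, by distance in bases from the start of the run. CT is at 60.0% at all 53 Rassf8 sites and near 20% along Mllt6 and Rbfox1 with E3 near 0%, and E3 is the higher library along Rmi1 and Hnrnpk.

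The genes with the most sites outside CpG owed them to such runs. Adamts2, a procollagen protease gene, had 33 sites, all in 1 run (E3 0%, CT 19.9%). In runs of 5 or more sites of 1 context Krt18 had 35 of 35 sites, Cfap43 34 of 36 and Cpeb3, a regulator of synaptic translation, 24 of 30. Grik4, a kainate receptor subunit gene, had 22 of 30 CHG and CHH sites in such runs, and Kcnip1, a potassium channel partner, 25 of 27. Chst5 had 28 of 28 in such runs, 1700016D06Rik 34 of 34, Commd1 24 of 27 and Tns3, a tensin gene, 23 of 33. Camta1, a calmodulin-binding transcription activator, was different, with 9 CHG and 15 CHH sites and 0 in such runs. Of its 24 sites 17 were lower in E3.

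CpG runs went in either direction. Runs of 2 or more CpG sites numbered 693, of which 93.1% had every site in 1 direction, and 64 runs had 5 or more. Of those 64, 43 were all lower in E3, 20 all higher and 1 mixed. The 10 longest were split as 4 higher and 6 lower, counting runs in order of their sites.

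In the Pigm run 22 CpG sites averaged 43.3% in E3 (19.6 to 63.3%) and 0.894% in CT (0 to 4.71%). Every listed site had passed the authors' thresholds, so a gap at each of them was set by the listing. The hippocampus was low in both libraries at the 19 Pigm sites measured there, 4.27% in E3 and 1.41% in CT. Coverage summed over these sites was 2037 reads in E3 and 567 in CT, with a read counted at each site that it covers. Actn1 had 19 sites at 34.8% in E3 and 2.92% in CT. At the 4 of them measured in the hippocampus the order was opposite, 24.1% in E3 and 81.8% in CT. Their summed coverage was only 58 reads in E3 and 33 in CT. The Nnat run had 11 sites at 23.8% in E3 (22.0 to 25.9%) and 0.682% in CT. In the hippocampus they were at 35.9% in E3 and 31.3% in CT, with summed coverage of 315 and 150 reads. As background, Nnat is expressed from the paternal allele and methylated on the other.

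Vcpkmt showed the reverse, with 14 sites at 0.936% in E3 and 22.9% in CT, against 46.9% and 45.2% in the hippocampus. For Vcpkmt and Nnat, then, 1 frontal cortex library stood near 0 and the other 3 libraries of the series were above 20%. Pigyl, a gene of the same anchor pathway as Pigm, had 9 promoter sites at 8.45% in E3 and 55.1% in CT (chr9:22157745-22157821), and 26.1% and 4.94% in the hippocampus. An intronic run of Zfp978 had 9 sites at 0.483% and 81.4% (chr4:147219520-147219612). On the X chromosome 10 sites in an untranslated exon of Frmpd3 were at 7.63% and 22.9%, near 9.06% and 9.47% in the hippocampus.

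Runs outside named genes completed the 10. Near Gm32719 (chr12:20230693-20231222) 13 listed sites were at 81.8% in E3 and 40% in CT. In the pseudogene Ppp1r2-ps4 (chr9:66806088-66806178) 11 sites were at 16.8% and 74.6%, with 42.1% and 9.26% in the hippocampus. Another 11 in Gm8641 (chr9:99947394-99947543) were at 25.1% and 71.4%, with 75.6% and 85.7% there.

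**Figure D5:**
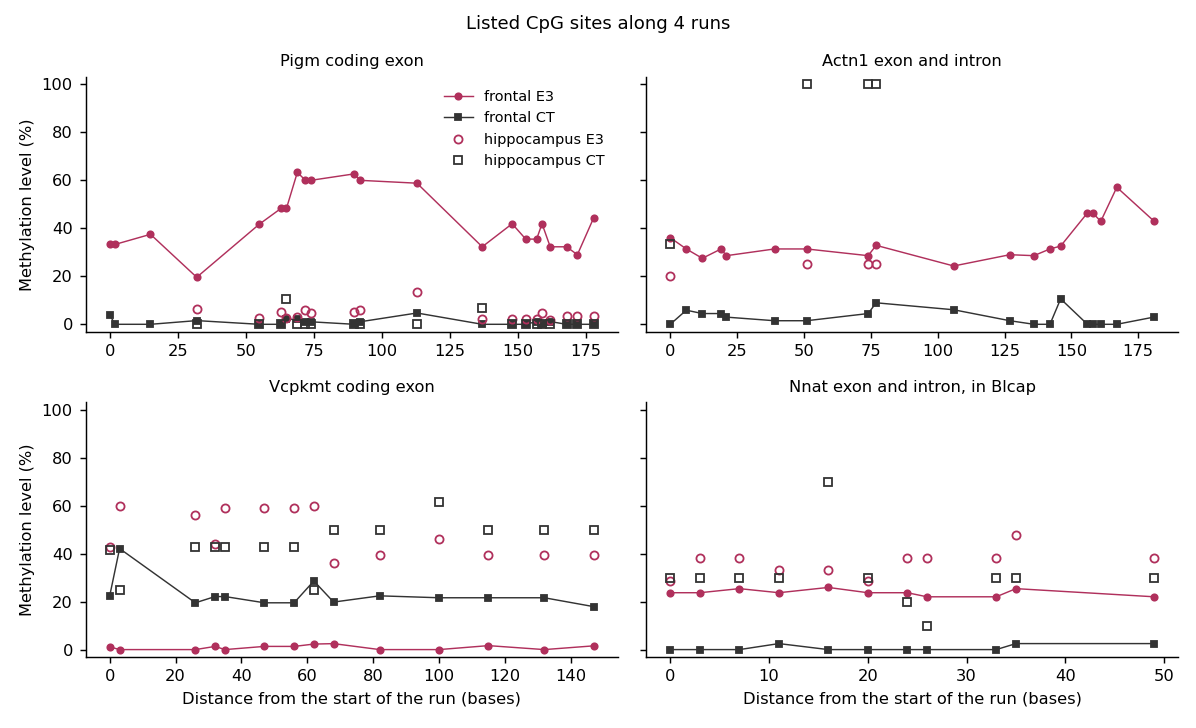
Methylation level (%) of each listed CpG site along the Pigm, Actn1, Vcpkmt and Nnat runs, by distance in bases from the start of the run. Filled symbols are frontal cortex, open symbols are hippocampus sites with at least 5 reads in both libraries, circles are E3 and squares CT. Only listed sites are drawn, so a gap between the frontal libraries at each site was set by the listing. Frontal E3 is above CT in Pigm, Actn1 and Nnat and below it in Vcpkmt.

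Of 7490 gene names, 4466 had a CpG, 1800 a CHG and 3967 a CHH site. A listed CpG site was present in 8.93% of 49939 RefSeq genes and in 18.5% of 21883 protein-coding genes. Sites in all 3 contexts were found in 518 genes (11.6% of the CpG genes), with every site lower in E3 in 108 and every site higher in 8. Of the listed sites 150 CHG sites (3.12%) and 389 CHH sites (2.80%) lay within 100 bases of a listed CpG site. The share of all measured sites that lie so near a listed CpG was not computed. The direction was the same in 55.3% and 61.7% of these sites, where lower sites prevailed in every context.

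Bcor, a corepressor subunit of a Polycomb complex, had the most CpG sites, 41 in 26 runs, all lower in E3 (mean 6.61% against 26.6%). At the 25 of them measured in the hippocampus the levels were 16.1% and 23.0%. Casz1, a zinc finger transcription factor gene, had 17 sites with 7 higher and 10 lower, and 6 CHH sites that were all lower. Pde10a, a phosphodiesterase gene, had 11 of 13 CpG sites lower (8.41% against 56.4%), and Ttc28 had 10 of 11 higher (51.7% against 3.17%). Enox1 had 8 of 10 lower, Rbpms, an RNA-binding protein gene, 8 of 14, Prkce, a protein kinase C gene, 6 of 11, Tmem108 5 of 11, and Gm3752 all 14 (1.37% against 29.4%). The chromosome 18 names Gm37013, Gm38666 and Gm38667 shared the same 17 sites, 11 of them lower, and 12 sites of Rn45s lay in ribosomal repeats, where copies cannot be told apart.

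Most of the gene lists hold genes with a median span above that of protein-coding genes, so each share is given with the number of listed sites per 1000 CpG sites measured in the hippocampus over the same genes. Of 26 postsynaptic scaffold and adhesion genes 20 had a listed CpG site (76.9%, median span 104 kb). For protein-coding genes the share was 18.5% and the median span 17.2 kb. The list had 11.0 listed sites per 1000, against 5.99 for protein-coding genes. Shank3, a postsynaptic scaffold, had 7 of 8 sites lower in E3 (13.1% against 33.7%), and Tnik, a kinase at the synapse, all 5 (0.909% against 70.6%). Nrxn2, a presynaptic adhesion gene, had 4 of 6 higher although its mean was lower in E3 (15% against 20.5%), and Dlgap1 had 4 of 5 higher (35.3% against 15.9%).

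Receptor and channel lists lay on both sides of the 5.99 listed per 1000 of protein-coding genes, with glutamate receptors the lowest of them. Of 26 glutamate receptor genes 12 had a site (46.2%), with 3.06 listed per 1000. Grik3, a kainate receptor subunit gene, had 2 sites at 34.6% in E3 and 10.4% in CT. Of 24 GABA genes 10 had one (41.7%, 7.55 per 1000). Potassium channels gave 15 of 33 (45.5%, 7.68 per 1000), with Kcnc1 lower at 4 of 4 sites and Kcnh1 higher at 3 of 3. Calcium and sodium channels gave 11 of 30 (36.7%, 5.34 per 1000), and Cacnb4, a calcium channel subunit gene, was lower at 4 of 4 sites (3.12% against 36.0%).

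Of the guidance and developmental lists, axon guidance lay below the 5.99 listed per 1000 of protein-coding genes and the others lay above it. Axon guidance had 27 of 64 genes with a site (42.2%, 5.26 per 1000). In Efnb1, an X-linked ephrin ligand, all 7 sites of 1 promoter run were at 27.2% in E3 on average and at 0% in CT, against 17.4% and 47.7% in the hippocampus. Plxna4, a semaphorin coreceptor, was lower at 5 of 5 sites (2.22% against 55.7%). Wnt ligands and receptors had 16 of 31 (51.6%, 7.67 per 1000). Of their 25 sites 19 were lower in E3, beside 63.7% of all listed CpG sites. The receptor gene Fzd2 had 3 of 4 sites higher, and Wnt3 was lower at 2 of 2 (2.04% against 23.6%). Neuronal developmental transcription factors had 33 of 58 (56.9%, 8.99 per 1000), and in Bcl11b, a regulator of deep-layer neurons, 6 of 8 sites were lower.

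The imprinted and Polycomb lists had the highest rates of listed sites. Imprinted genes had 19 of 40 members with a site (47.5%) and 21.5 listed per 1000, where Nnat and Blcap share 13 sites. Gnas was lower at 5 of 7 sites and Trappc9 at 5 of 5 (3.17% against 66.2%, and 86.0% against 14.5% in the hippocampus). Polycomb genes had 12 of 34 (35.3%) and 14.0 per 1000, with 58 of 59 sites lower and 41 of them in Bcor. Bcorl1 was lower at 3 of 3 sites (2.44% against 40.6%) and Cbx6 at 3 of 3 (7.92% against 29.9%).

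The estrogen receptor list had 10 of 21 genes with a site (47.6%, 6.82 per 1000, median span 86.4 kb). For protein-coding genes the values were 18.5%, 5.99 per 1000 and 17.2 kb. The orphan receptor gene Esrrg was lower at 2 CpG, 3 CHG and 7 of 9 CHH sites, and the coactivator gene Ncoa3 at 2 of 2 CpG sites (0% against 42.2%). DNA methylation enzymes and readers had 7 of 22 (31.8%, 5.45 per 1000). There Tet3, a methylcytosine oxidase, was lower at 2 of 3 sites. Of the brain genes chosen for expression assays in these mice, 3 of 20 had a site (15%, 2.76 per 1000), namely Agrn, Tacr1 and Grm2, all lower. Stress axis and neuropeptide genes had 9 of 40 (22.5%, 6.14 per 1000), with Adcyap1, a neuropeptide gene, lower at 3 of 3 sites. Monoamine genes had 15 of 34 (44.1%, 11.1 per 1000), and 5 promoter sites of Maoa, the X-linked monoamine oxidase, were at 9.00% and 30.6%.

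Markers of the cell types of the cortex were counted as well, against 18.5% of protein-coding genes with a listed CpG site and 5.99 listed sites per 1000. Neuron markers gave 7 of 11 (63.6%, 5.55 per 1000, median span 62.8 kb) and astrocyte markers 3 of 9 (33.3%, 8.11 per 1000). Oligodendrocyte markers gave 4 of 11 (36.4%, 7.53 per 1000), microglia markers 2 of 10 (20%, 12.9 per 1000) and endothelial markers 2 of 8 (25%, 3.64 per 1000).

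Beside the 63.7% of all listed CpG sites that were lower in E3, neuron markers had 7 of 8 sites lower, oligodendrocyte markers 5 of 6, astrocyte markers 1 of 4, and microglia and endothelial markers 1 of 2 each. Rbfox3, the NeuN gene, was lower at 2 of 2 sites (12.0% against 42.8%), whereas the 1 site of the neuronal kinase gene Camk2a was higher (70.6% against 14.8%). Gfap and Slc1a3, both astrocyte genes, had 1 site each, at 16.4% and 23.3% in E3 and at 0% in CT, and the astrocyte glutamate transporter gene Slc1a2 had 1 site in each direction. The part of cell makeup in the result was not tested.

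The hippocampus libraries were then tested at the listed sites, by Fisher's exact test on reads with the study's thresholds, which compares 2 libraries and not the conditions. Of 6651 listed CpG sites measured there 1932 passed (29.0%), against 12.1% of all measured CpG sites. Of the 4318 listed ones at a pooled level between 10 and 90%, 1798 passed (41.6%), against 27% of all measured sites at such a level. The frontal cortex direction was shared by 959 of the 1932 (49.6%, 47.4 to 51.9%). In CHG 331 of 2845 passed (11.6%, against 3.42% of all measured) and 208 had the frontal direction (62.8%). In CHH 1007 of 8440 passed (11.9%, against 3.68%) and 615 had it (61.1%). These backgrounds are not matched for level. Of all measured CHG sites 63.7% were at 0% in both hippocampus libraries, against 39.0% of the listed ones measured there. In CHH the shares were 62.5% and 34.8%. The share passing among all measured CHG and CHH sites of a like level was not computed.

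Outside CpG the count depended on the direction looked at. Over all measured sites 3.17% of CHG sites were called lower in hippocampus E3 and 0.254% higher, and in CHH 3.36% lower and 0.319% higher. Of 220 passing CHG sites that were lower in frontal E3, 167 were lower in the hippocampus, and of 111 that were higher in frontal E3, 41 were higher there. In CHH the counts were 509 of 639 and 106 of 368. Lower calls prevailed among passing sites of both kinds. At sites higher in frontal E3 they were 63.1% of calls in CHG and 71.2% in CHH. At sites lower in frontal E3 they were 75.9% and 79.7%. Over all measured sites the shares were 92.6% and 91.3%. Most measured sites higher in frontal E3 passed in neither direction (111 of 613 passed in CHG and 368 of 2157 in CHH). In CpG, where 5.36% of all measured sites were called lower and 6.72% higher, listed sites with frontal differences of 90 points or more had the same direction in 78 of 164 passing sites.

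The single sites printed above can be read the same way. Marchf4, at 100% in frontal E3 and 0% in CT, was at 34.5% of 29 reads and 80.0% of 5 reads in the hippocampus. Naaladl2 was at 0% of 44 and 0% of 28 reads. Prkcb, at 0% in frontal E3 and 100% in CT, was at 53.8% of 26 and 22.2% of 9 reads, and Sardh was not analysed there. Sites at 0% in one library and 100% in the other were tied for the largest difference: 27 CHG and 57 CHH sites were at 100% in E3, and 18 and 43 at 100% in CT. The 4 sites were taken from the first 5 of each kind in chromosome order.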

How the data were processed

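DNA of frontal cortex and hippocampus was digested with TaqαI and MspI, size-selected, bisulfite-treated and sequenced. Per the study's methods reads were trimmed with TrimGalore, aligned to mm10 with Bismark and called with MethylDackel. The frontal cortex tables deposited by the authors give each library's methylated fraction, at sites with 5 or more reads, a difference of 10 points or more and an unadjusted Fisher p below 0.05. They also hold the authors' differences and p-values, which were not used. The hippocampus tables deposited by the authors give a fraction and a coverage count for every cytosine with 5 or more reads in both libraries, and their own differences and p-values, not used either. Frontal cortex depth is unknown.

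Fractions were turned into percent and subtracted (E3 minus CT). Neighbouring sites at most 100 bases apart were joined into runs. Methylated reads of the hippocampus were rebuilt as fraction times coverage, with CpG strands summed, and tested by 2-sided Fisher's exact test per site, unadjusted, on these counts, after a check on simulated data. Triplets, sequences and annotation came from RefSeq GRCm38.p6. Of 7490 gene names 7447 matched by symbol and 32 by an older symbol. Python 3.11.15, numpy 2.4.6, pandas 2.3.3, numba 0.67.0, pysam 0.24.0 and matplotlib 3.10.9 were used.

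The sites, the 20 gene lists and the marker lists were chosen with earlier results of these data known. Genes named were the 20 with the most CpG sites, the 10 with the most CHG and CHH sites each, the 10 with most sites among those in all 3 contexts, and up to 4 per list by CpG sites. The 10 longest CpG runs and the 5 largest rises and falls of CHG and CHH, ties taken in chromosome order, were also chosen, of which 4 are described. Genes on more than 1 chromosome were counted only. Some genes that this rule picks are not reported here. Runs of CHG and CHH sites were described after their values were seen. With 1 library a group no test between conditions was made. Alternatives covered the minimum difference, counting runs or genes once, sites at the ends of the scale, autosomes, parts, coverage and run gap.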

Additional observations from a re-analysis of the deposited data

Results flagged for a closer look

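In 12 of the named runs and genes the listed CpG sites differed in opposite directions in the frontal cortex and in the hippocampus, by at least 10 points in both and with at least 3 of the listed sites measured in the hippocampus. Only opposite directions were looked for. Named genes with the same direction in both tissues at these cutoffs, such as Bcl11b and Maoa, are therefore not in this list. Over all listed CpG sites that passed in the hippocampus, 49.6% had the frontal direction. Each tissue had 1 library a group, so the difference between tissues was not tested. Values are E3 minus CT in points, in the frontal cortex over all listed sites and in the hippocampus over the listed sites measured there.

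Of these, 3 were runs. In Actn1 the difference was 31.9 points in the frontal cortex and -57.7 in the hippocampus (4 sites). In Ppp1r2-ps4 it was -57.8 and 32.8 points (7 sites), and in Pigyl -46.6 and 21.2 points (9 sites).

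The other 9 were genes. Tnik had -69.7 points in the frontal cortex and 85.6 in the hippocampus (4 sites), and Trappc9 had -63.0 and 71.5 (5 sites). Enox1 had -56.9 and 10.4 (6 sites), Plxna4 -53.5 and 13.3 (3 sites), Kcnc1 -21.6 and 28.2 (3 sites), and the imprinted Gnas -18.3 and 22.7 (4 sites). Higher in frontal E3 and lower in hippocampus E3 were Ttc28 with 48.5 and -18.5 (7 sites), Efnb1 with 27.2 and -30.3 (7 sites), and Camta1 with 22.1 and -37.9 (5 sites).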

How the results depend on the processing

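Each group had 1 library, frontal cortex depth is unknown, and only sites past the authors' thresholds are listed, so counts say nothing of sites that did not differ. No paired analysis was possible because each group had 1 library. No alternative turned the direction of a context or gene part, but most shares moved beyond their counting interval. Differences of 90 points or more, where CHG and CHH sites were mostly higher in E3, were not among the alternatives. With at least 25 points the share lower in E3 was 58.4% in CpG, 76.0% in CHG and 71.9% in CHH, and with at least 50 points 56.9%, 63.3% and 63.6%. With runs counted once it was 77.4% in CHG and 72.2% in CHH, and without runs of 5 or more sites, an alternative chosen after seeing the data, 77.2% and 72.8%. That last setting put 62.6% of CHG and 56.0% of CHH sites at 0% in E3, CAC at 41.8% of CHH and CAG at 80.1% of CHG. By part, at least 25 points gave 77.2% in promoters, 63.7% in exons, 59.8% in introns, 78.9% in islands and 53.2% in none. Genes counted once gave 83.7% in promoters and 74.1% in exons, and each site in 1 part gave 62.4% in exons and 58.0% in introns. A gap of 50 bases put 96.0% of CpG runs in 1 direction. At 25 points 221 genes had sites in all 3 contexts. Lists above the protein-coding share numbered 19, and 17 with promoter sites only.

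In the hippocampus the share of listed sites called at 10 reads, 20 reads and 25 points was 35.2%, 40.9% and 24.9% in CpG, 14.6%, 17.4% and 10.2% in CHG, and 14.4%, 20.7% and 10.1% in CHH. At 20 reads the calls in the frontal direction were 56.2% in CHG and 57.0% in CHH. Among named genes the mean CpG difference of Casz1 became 4.01 points and that of Prkce 1.43 points at 25 points, both turned from lower to higher in E3. The cause of these changes was not tested.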
